A study of Mus musculus with 12 samples.

Results

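Tight junctions seal the space between neighbouring cells of epithelia and endothelia. Claudins form their strands and decide which ions pass, occludin and tricellulin are membrane proteins of the MARVEL family, the junctional adhesion molecules are immunoglobulin proteins that lie close to the strands, and ZO-1, encoded by Tjp1, is the scaffold that ties the strands to actin. Fibroblasts have no tight junction belt, although they transcribe some of these genes. The data described here are the transcript levels of Cldn1, Cldn12, Cldn15, Ocln, Marveld2, F11r, Jam2, Jam3 and Tjp1 in J2A tumors. These 9 genes, of 19938 genes with a named probeset on the array, were listed by symbol, and Cldn1 was chosen by its own values, the log2 differences between these VR, VdR and R tumors that an earlier analysis had given. Its values are therefore a description and carry no test. Each of the 9 genes had 1 probeset. Ocln was left out of the tests by the filter on low values, which 8 of the 9 genes passed.

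The tumors grew from J2A cells, a myofibroblast line derived from the aorta of p16/p19/Vnn1 -/- C57BL/6 mice and transformed with human H-RasV12 fused to GFP. VR cells carried in the same retroviral vector, under the cytomegalovirus promoter, an intact mouse Vnn1 (vanin-1, the pantetheinase that splits pantetheine into pantothenate, the vitamin precursor of coenzyme A, and cysteamine), VdR cells carried a catalytically deficient Vnn1, and R cells carried H-RasV12 with no Vnn1 insert. There were 4 VR, 4 VdR and 4 R tumors, numbered 1, 2, 4 and 5 in each group, grown for 2 to 3 weeks under the skin of nude mice, which lack T cells but keep macrophages and blood vessels of their own. Nothing in the sources used here says that the 4 tumors of a group came from separate transductions, so p-values measure the spread between grafts of one cell line. The comparisons ask which transcripts differ with Vnn1 (VR against R) and with the Vnn1 protein lacking its catalytic activity (VdR against R). VR against VdR sets intact beside catalytically deficient Vnn1. According to the paper, R and VdR cells gave aggressive tumors in nude mice, while VR cells grew poorly. Comparisons with VR tumors therefore also set slow beside fast growth, and the arrays cannot separate growth from Vnn1. All values are log2 expression on an array scale, on which a step of 1 is a 2-fold change, and a probeset's level cannot be set against that of another gene.

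Vnn1 itself was at 11.26, 10.54, 11.06 and 10.64 in VR tumors, 11.37, 11.49, 11.66 and 11.73 in VdR tumors and 5.70, 5.53, 5.75 and 5.83 in R tumors (tumors 1, 2, 4 and 5 in that order, as in all lists of values that follow). Every VR and VdR tumor was thus far above every R tumor, while this probeset does not tell intact from catalytically deficient Vnn1. Every VR tumor was also below every VdR tumor, with VR minus VdR at -0.69 (1.61-fold lower in VR). VR against VdR therefore differs in Vnn1 transcript level as well as in catalytic activity. All arrays had medians between 6.66 and 6.77. The VR and VdR tumors numbered 1 stood apart from the rest of their groups in the 14 epithelial cell markers, with a mean log2 level of 6.74 in VR tumor 1 against 6.12 to 6.19 in the other VR tumors, and of 6.56 in VdR tumor 1 against 6.16 to 6.22 in the other VdR tumors. The R tumors lay between 6.17 and 6.35. Calls that were lost without these tumors are given with and without them.

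The 250 bases upstream of the annotated start of the claudin genes among the 9 are shown because Cldn1 differed between the groups far more than Cldn12 and Cldn15 did. They are RefSeq sequences of build GRCm38.p6, 5′ to 3′ on the strand of the gene, and capitals mark GC boxes (GGGCGG or its complement), the motif bound by factors of the Sp family. RefSeq windows were at hand for 7 of the 9 genes and none was used for Jam2 and Jam3.
Cldn1: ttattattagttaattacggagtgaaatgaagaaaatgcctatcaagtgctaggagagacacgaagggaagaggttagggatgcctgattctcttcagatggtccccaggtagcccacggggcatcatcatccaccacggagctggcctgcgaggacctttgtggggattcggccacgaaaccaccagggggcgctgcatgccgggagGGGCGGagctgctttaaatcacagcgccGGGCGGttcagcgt
Cldn12: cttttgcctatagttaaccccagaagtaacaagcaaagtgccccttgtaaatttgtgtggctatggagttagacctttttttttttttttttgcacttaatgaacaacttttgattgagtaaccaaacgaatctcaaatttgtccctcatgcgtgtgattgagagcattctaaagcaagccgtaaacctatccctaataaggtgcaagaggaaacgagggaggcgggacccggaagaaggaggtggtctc
Cldn15: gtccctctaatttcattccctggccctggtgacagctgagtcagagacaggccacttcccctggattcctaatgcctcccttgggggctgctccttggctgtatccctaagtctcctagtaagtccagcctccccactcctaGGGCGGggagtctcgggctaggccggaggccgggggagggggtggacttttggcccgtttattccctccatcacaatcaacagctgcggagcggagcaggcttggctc

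The Cldn1 stretch, chr16:26371840-26372089 on the minus strand, is 55.6% G and C with 14 CpG dinucleotides, and has 2 GC boxes, 42 and 14 bases before the start. The Cldn12 stretch, chr5:5514977-5515226 on the minus strand, is 42.0% G and C with 6 CpG and no GC box. RefSeq has 2 further Cldn12 windows that overlap this stretch, with 65.2% and 58.8% G and C, 20 and 16 CpG and 1 GC box each, so the absence of a GC box belongs to the printed stretch alone. The Cldn15 stretch, chr5:136967619-136967868 on the plus strand, is 60.8% G and C with 7 CpG, 1 GC box at 108 bases before the start and 1 AP-1 motif (TGANTCA). On both strands, a GC box was found in 32.7% of 32851 RefSeq windows of this length, a TATAAA motif in 12.4%, the CACCTG box bound by Snail factors in 17.2% and TGANTCA in 6.7%. The Cldn1 stretch held none of the last 3 motifs. Such matches are letters in a window and say nothing of binding in these tumors.

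Cldn1, which encodes the claudin that seals the epidermis, was highest in VR tumors, intermediate in VdR tumors and lowest in R tumors. It lies at chr16:26356645-26371839 on GRCm38.p6. Its level was 9.90, 10.27, 10.06 and 9.88 in the VR tumors. It was 8.81, 8.88, 7.85 and 8.17 in the VdR tumors. It was 6.91, 7.47, 5.97 and 6.45 in the R tumors. No tumor of one group overlapped those of another, and the lowest VR tumor stood 0.99 above the highest VdR tumor, while the lowest VdR tumor stood 0.38 above the highest R tumor. The means were 10.03 ± 0.178 in VR, 8.43 ± 0.502 in VdR and 6.70 ± 0.637 in R tumors (SD, n = 4 each), so the spread was smallest in the group with the highest level. The difference was 3.33 on the log2 scale for VR minus R (10.0-fold), 1.73 for VdR minus R (3.31-fold) and 1.60 for VR minus VdR (3.03-fold). Among 16573 genes past the filter on low values, 1 gene, the introduced Vnn1, had a larger difference in favor of VR over R. In favor of VdR over R 11 genes had a larger one, Vnn1 among them, and in favor of VR over VdR 5 genes had. Cldn1 was chosen by these differences, so its high ranks follow from the choice. Leaving out any single tumor moved the Cldn1 difference no further than 3.08 to 3.58 for VR minus R, 1.49 to 1.98 for VdR minus R and 1.40 to 1.77 for VR minus VdR. Without the VR and VdR tumors numbered 1, the differences were 3.37, 1.60 and 1.77.

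**Figure D1:**
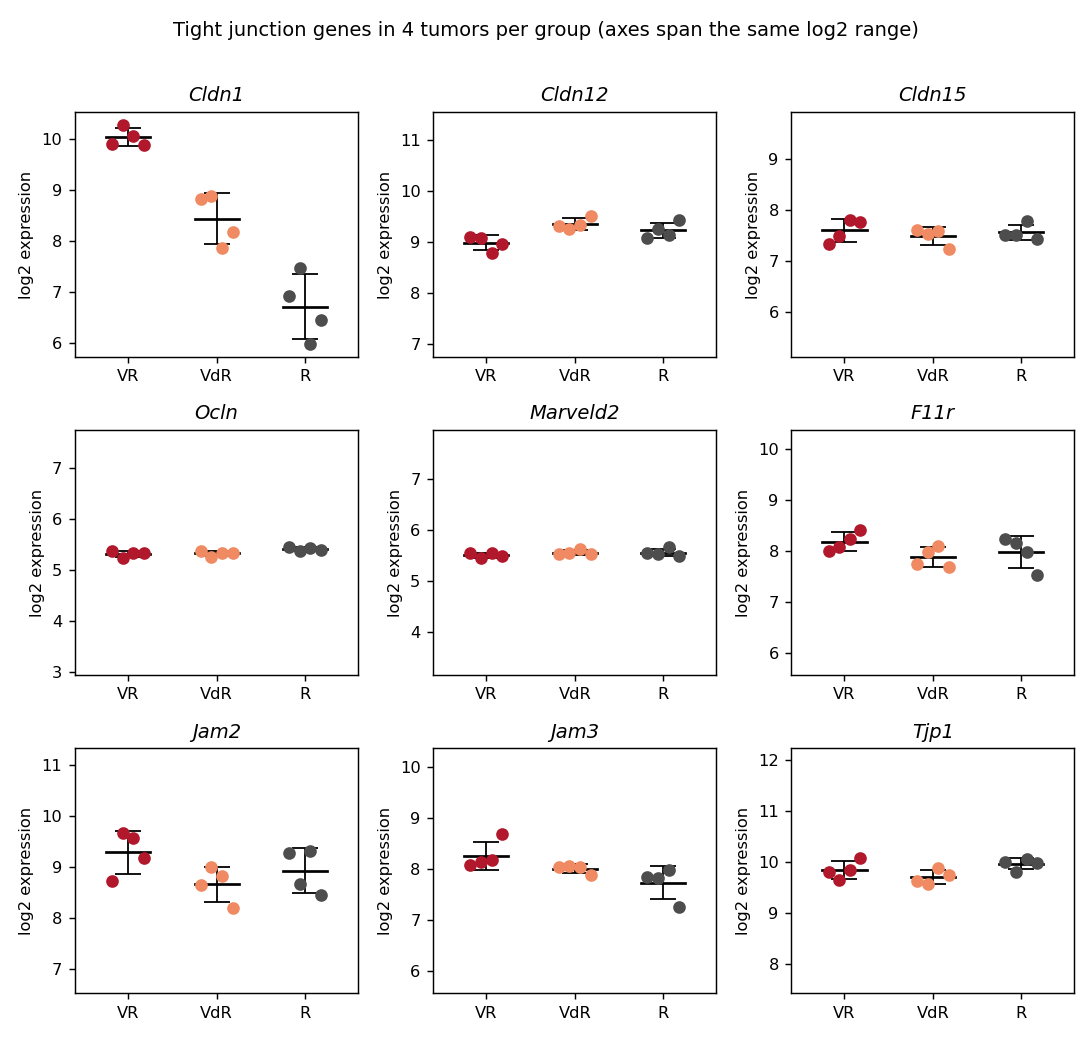
Log2 expression of the 9 tight junction genes in VR, VdR and R tumors, 1 panel per gene, each spanning the same log2 range around its own values. Points are single tumors (4 per group) and bars give the mean and SD. The 3 groups stand apart in the Cldn1 panel, with means of 10.03, 8.43 and 6.70, while in the other panels they lie close together.

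The tumors are mixtures of grafted and host cells, and in such bulk samples more cells of a type and more RNA per cell cannot be told apart. Cldn1 was therefore set beside markers of the cell types a graft could hold. The mean log2 level of 13 fibroblast markers had group means in the same order as Cldn1, and lay between 11.32 and 11.70 in VR, 10.98 and 11.24 in VdR and 10.67 and 11.08 in R tumors. Of these, 9 of 13 rose in VR against R, where 13.6% of all genes tested rose, 1 rose in VdR against R, where 6.58% of all genes rose, and 3 were higher in VR against VdR, where 1.77% of all genes were, with the platelet-derived growth factor receptor gene Pdgfra 0.30 higher (limma, adjusted p = 0.0118) and the collagen gene Col1a1 0.54 higher (limma, adjusted p = 0.00465) in VR against R tumors. Over the 13 fibroblast markers, VR minus R ran from 0.03 (Vim) to 2.50 (Lum). VdR minus R ran from -0.13 (Thy1) to 1.42 (Dpt), and VR minus VdR from 0.01 (Vim) to 1.77 (Lum). The grafted myofibroblasts express these markers too, so the list does not separate grafted cells from host fibroblasts. The 15 macrophage markers were at 9.84 to 10.01 in VR and 9.94 to 10.23 in VdR tumors, both above the 8.91 to 9.20 of R tumors. Against R tumors 11 of 15 rose in VR and 14 of 15 in VdR tumors, beside the same 13.6% and 6.58% of all genes. Between VR and VdR 0 were called, with 3 at an unadjusted p under 0.05. There 1.77% of all genes were higher and 1.67% lower in VR. The 13 endothelial markers were at 8.88 to 9.27 in VR, 8.56 to 8.82 in VdR and 8.42 to 8.91 in R tumors, and 4 of 7 Schwann cell markers, those named on the array, at 7.02 to 7.30, 6.84 to 7.19 and 6.98 to 7.40 in the same order of groups, with 0 of the 4 called in any comparison. The part of cell composition in the Cldn1 difference was not tested.

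Epithelial cells are the best known site of Cldn1. Epcam, an epithelial adhesion molecule, was at 7.20, 5.59, 5.67 and 5.68 in VR, 6.25, 5.62, 5.55 and 5.63 in VdR and 5.63, 5.48, 5.68 and 5.66 in R tumors. The simple epithelial keratin gene Krt8 was at 8.77 in VR tumor 1 and 8.03 in VdR tumor 1, against 6.77 to 6.88 in the other VR tumors, 6.59 to 7.11 in the other VdR tumors and 7.11 to 7.83 in R tumors. Cldn1 was at 9.90 in VR tumor 1, against 9.88 to 10.27 in the other VR tumors. In VdR tumor 1 it was at 8.81, against 7.85 to 8.88 in the other VdR tumors. The part of epithelial cells in the Cldn1 difference was not tested. Of 13 epithelial markers tested, Cdh1, encoding E-cadherin, was the 1 called in VR against R tumors, where 13.6% of all genes rose and 7.48% fell. Cdh1 was 0.41 higher (limma, adjusted p = 0.0346), at 7.57, 7.22, 7.44 and 7.17 in VR, 7.44, 7.06, 6.92 and 6.88 in VdR and 6.90, 6.81, 6.99 and 7.07 in R tumors. Without the VR and VdR tumors numbered 1 the Cdh1 difference was 0.34 (limma, adjusted p = 0.0256), and it was not called in 7 of the 20 alternatives tried, without VR tumor 1 alone among them (0.34, limma, adjusted p = 0.092). In VdR against R and in VR against VdR 0 epithelial markers were called by limma or by the methods' t-test, with 0 and 1 at an unadjusted p under 0.05. Of all genes, limma called 6.58% higher and 2.81% lower in VdR against R, and 1.77% and 1.67% in VR against VdR.

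**Figure D2:**
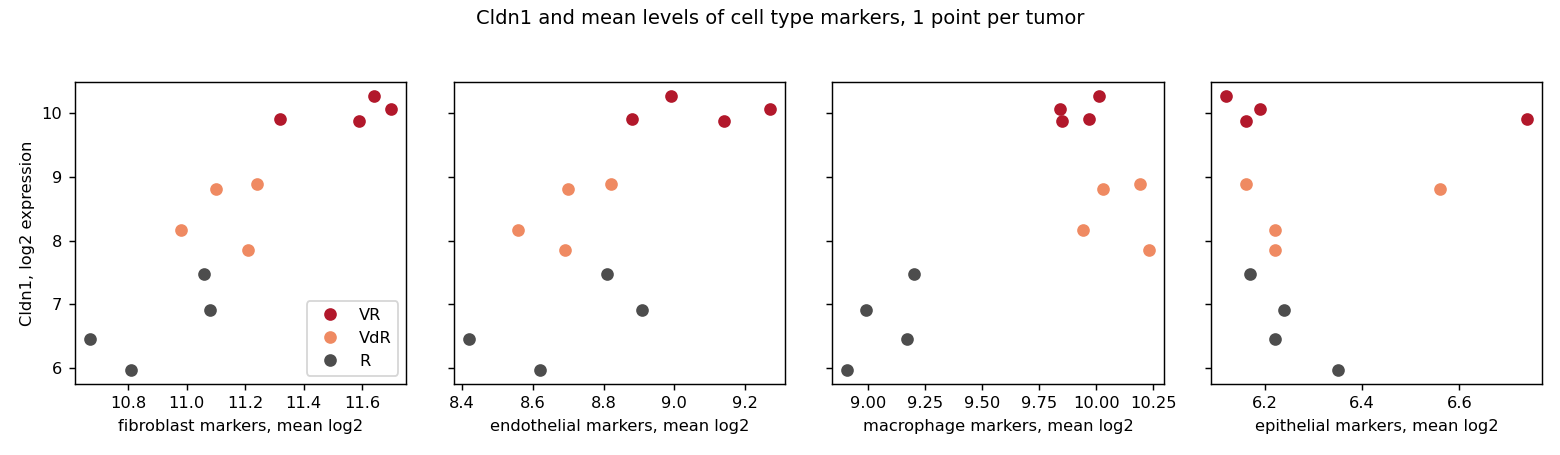
Cldn1 log2 expression (vertical axis) against the mean log2 level of the fibroblast, endothelial, macrophage and epithelial markers (horizontal axes) in each of the 12 tumors, colored by group. The group means are ordered alike in Cldn1 and the fibroblast markers, and VR and VdR tumors overlap in macrophage markers. Epithelial marker means have the same order by small steps (6.30, 6.29 and 6.24 in VR, VdR and R), and endothelial means are 9.07, 8.69 and 8.69. The 2 tumors far to the right in epithelial markers, at 6.74 and 6.56, have Cldn1 levels of 9.90 and 8.81.

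The other 8 genes showed small differences, and the background of each comparison gives their scale. Of 16573 genes tested, 13.6% rose and 7.48% fell in VR against R tumors. In VdR against R tumors 6.58% rose and 2.81% fell. Between VR and VdR, 1.77% of genes were higher in VR and 1.67% were lower in VR. Of the 7 other genes tested, Jam3 passed the threshold, higher in VR against R, and the remaining 6 were not called, which is near the background share. In VdR against R and in VR against VdR, 0 of the 7 were called by limma or by the methods' t-test, with 1 (Tjp1) and 2 (Cldn12 and Jam2) at an unadjusted p under 0.05. Their median log2 difference was 0.03 for VR minus R, -0.08 for VdR minus R and 0.14 for VR minus VdR, beside medians of -0.0147, 0.00377 and -0.0179 over all genes tested. The comparisons of VR and of VdR with R share the R tumors.

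Cldn12 encodes a claudin without the usual scaffold-binding tail, linked to calcium passage in the gut, and every VR tumor was below every VdR tumor. It was at 9.10, 9.08, 8.77 and 8.95 in VR tumors, 9.31, 9.24, 9.32 and 9.51 in VdR tumors and 9.08, 9.25, 9.14 and 9.42 in R tumors. The VR and VdR groups stood apart, while R tumors overlapped both. The difference of VR minus VdR was -0.37 (95% interval -0.57 to -0.17) and narrowly missed the threshold (limma, adjusted p = 0.0513). It was called with 5 of the 20 alternatives tried, which gave adjusted p-values of 0.0282 to 0.151. For VR minus R the difference was -0.25 (95% interval -0.45 to -0.04, limma, adjusted p = 0.0803) and for VdR minus R it was 0.12 (95% interval -0.08 to 0.32, limma, adjusted p = 0.486). Cldn12 thus had its lowest mean in the group where Cldn1 had its highest.

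Cldn15, which encodes a sodium-conducting claudin of the intestine, did not differ beyond the spread between tumors. It was at 7.33, 7.50, 7.80 and 7.76 in VR, 7.61, 7.53, 7.58 and 7.24 in VdR and 7.52, 7.52, 7.79 and 7.43 in R tumors. All 3 groups overlapped. The differences were 0.03 for VR minus R (95% interval -0.22 to 0.29), -0.08 for VdR minus R (-0.33 to 0.18) and 0.11 for VR minus VdR (-0.14 to 0.37), with limma adjusted p-values of 0.85, 0.759 and 0.663.

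The MARVEL genes Ocln and Marveld2 lay near the bottom of the array scale. Ocln, encoding occludin, was at 5.37, 5.22, 5.33 and 5.33 in VR, 5.36, 5.25, 5.33 and 5.32 in VdR and 5.45, 5.37, 5.42 and 5.38 in R tumors. These values surround 5.38, the 25th percentile of all values on the arrays, which served as the filter. Too few tumors exceeded it for a test. Marveld2, encoding tricellulin, which sits where 3 cells meet, was at 5.54, 5.44, 5.54 and 5.48 in VR, 5.53, 5.54, 5.62 and 5.53 in VdR and 5.54, 5.52, 5.66 and 5.49 in R tumors. It passed the filter by a narrow margin and its groups overlapped. Its differences were -0.05 for VR minus R (95% interval -0.16 to 0.06), 0.00 for VdR minus R (-0.11 to 0.12) and -0.05 for VR minus VdR (-0.16 to 0.06), with limma adjusted p-values of 0.517, 0.983 and 0.64.

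Among the junctional adhesion molecules, Jam3 was the gene called. It encodes JAM-C, found on endothelial cells and fibroblasts, where it binds JAM-B. Jam3 was at 8.08, 8.13, 8.17 and 8.68 in VR, 8.05, 8.07, 8.05 and 7.89 in VdR and 7.85, 7.83, 7.99 and 7.26 in R tumors. Every VR tumor was above every R tumor, by at least 0.08. The mean was 8.26 ± 0.277 in VR, 8.01 ± 0.0865 in VdR and 7.73 ± 0.322 in R tumors (SD, n = 4 each), and VR minus R was 0.53 (1.45-fold, 95% interval 0.19 to 0.87, limma, adjusted p = 0.0298). Tumor 5 was the highest of the VR tumors and the lowest of the R tumors, and the call was lost without either. Without VR tumor 5 the difference was 0.39 (limma, adjusted p = 0.0726) and without R tumor 5 it was 0.37 (limma, adjusted p = 0.0533). With all tumors kept, the call was also lost in 3 of the alternatives tried, with adjusted p-values up to 0.145, the value of the methods' t-test. The VdR differences were not called, at 0.28 for VdR minus R (95% interval -0.06 to 0.62, limma, adjusted p = 0.313) and 0.25 for VR minus VdR (95% interval -0.09 to 0.59, limma, adjusted p = 0.422).

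Jam2, encoding JAM-B, the endothelial partner of JAM-C, varied most between tumors of a group among the 8 genes other than Cldn1. It was at 8.73, 9.66, 9.58 and 9.18 in VR, 8.64, 9.0, 8.82 and 8.20 in VdR and 9.28, 8.67, 9.32 and 8.45 in R tumors. The groups overlapped, with 3 VR tumors above all VdR tumors. The largest of its differences was VR minus VdR, at 0.62 (95% interval 0.09 to 1.16, limma, adjusted p = 0.19). VR minus R was 0.36 (-0.18 to 0.89, limma, adjusted p = 0.323) and VdR minus R was -0.27 (-0.81 to 0.27, limma, adjusted p = 0.578).

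F11r encodes JAM-A, carried by epithelial and endothelial cells, platelets and leukocytes. It was at 8.01, 8.07, 8.24 and 8.42 in VR, 7.74, 7.98, 8.09 and 7.69 in VdR and 8.24, 8.16, 7.99 and 7.52 in R tumors. The groups overlapped, and R tumor 5 was the lowest of all 12. The differences were 0.21 for VR minus R (95% interval -0.12 to 0.54), -0.10 for VdR minus R (-0.43 to 0.23) and 0.31 for VR minus VdR (-0.02 to 0.64), with limma adjusted p-values of 0.342, 0.755 and 0.297.

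The endothelial markers were set beside the junctional adhesion genes. Their mean log2 level was 8.88, 8.99, 9.27 and 9.14 in VR, 8.70, 8.82, 8.69 and 8.56 in VdR and 8.91, 8.81, 8.62 and 8.42 in R tumors. Tumors VdR 5 and R 5 had the lowest endothelial level of their groups and also the lowest Jam2, Jam3 and F11r. In VR tumors tumor 5, with the highest Jam3 and F11r, had the second-highest endothelial level after tumor 4. Other tumors differed from this order, since R tumor 4, with the highest Jam2 and Jam3 of the R tumors, had the second-lowest endothelial level of its group, and so had VR tumor 2, with the highest Jam2 of all. Of the 13 endothelial markers, 3 rose in VR against R, beside 13.6% of all genes. Among them was Kdr, the main receptor of vascular endothelial growth factor, by 0.90 (limma, adjusted p = 0.00629). All 13 differences of VR minus R were above 0, with a median of 0.29 beside -0.0147 over all genes. In VdR against R 0 of the 13 were called by limma or the methods' t-test, with 1 at an unadjusted p under 0.05. There 6.58% of all genes rose and 2.81% fell, and the median of the markers was -0.01. In VR against VdR 2 were higher in VR, beside 1.77% of all genes, and all 13 differences were above 0, with a median of 0.31. The defining markers Pecam1 and Cdh5, a platelet and endothelial adhesion molecule and the cadherin of vessels, were 0.40 (limma, adjusted p = 0.142) and 0.24 (limma, adjusted p = 0.371) above R in VR tumors, neither of them called. The part of vessel content in the Jam3 difference was not tested.

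**Figure D3:**
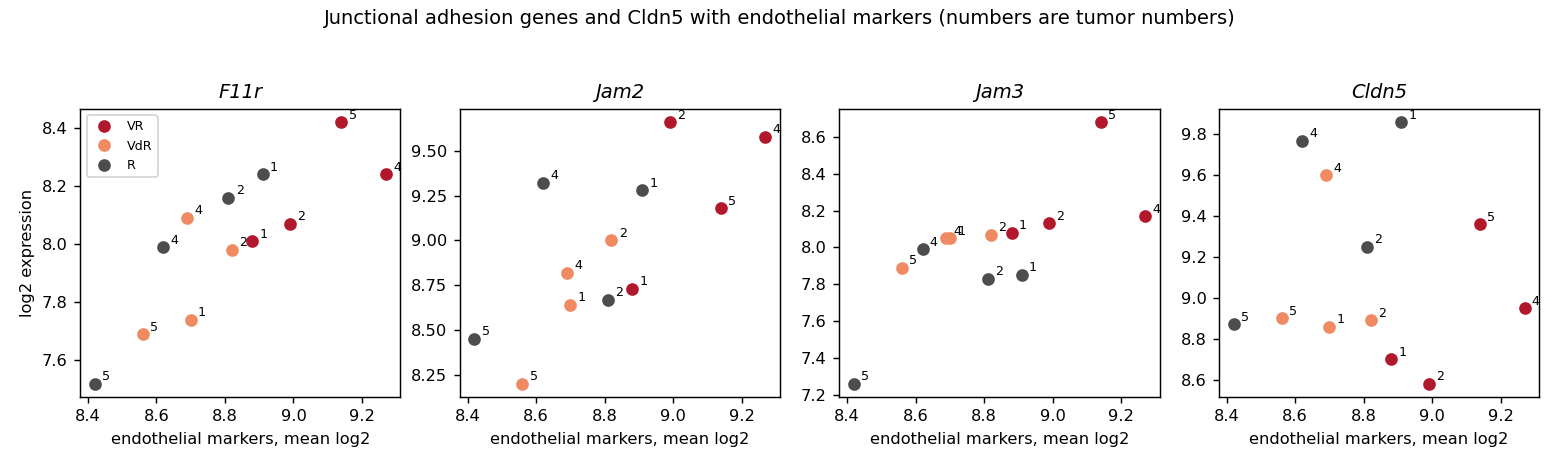
Log2 expression of F11r, Jam2, Jam3 and Cldn5 (vertical axes) against the mean log2 level of 13 endothelial markers (horizontal axes), 1 point per tumor, colored by group and labelled with the tumor number. R tumor 5 has the lowest endothelial level of all, 8.42, and the lowest Jam3 and F11r, 7.26 and 7.52, while Cldn5 reaches its highest value, 9.86, in R tumor 1.

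Tjp1, encoding ZO-1, was at 9.80, 9.65, 9.84 and 10.08 in VR, 9.63, 9.57, 9.87 and 9.74 in VdR and 10.00, 9.80, 10.06 and 9.98 in R tumors. The VdR tumors were lowest on average and overlapped the R tumors through VdR tumor 4 alone, which lay above R tumor 2. VdR minus R was -0.26 (95% interval -0.46 to -0.05, limma, adjusted p = 0.114). VR minus R was -0.12 (-0.32 to 0.09, limma, adjusted p = 0.387) and VR minus VdR was 0.14 (-0.06 to 0.35, limma, adjusted p = 0.464). None of its differences was called in this fit, while that of VdR minus R passed the threshold in 2 of the 20 alternatives tried, array weights (limma, adjusted p = 0.0422) among them.

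The wider tight junction machinery was examined in a list of 62 further genes, of which 59 were named on the array and 54 were tested. In VR against R tumors 2 rose and 4 fell, beside 13.6% and 7.48% of all genes, with a median difference of -0.06. In VdR against R tumors 2 rose and 3 fell, beside 6.58% and 2.81% of all genes, with a median of -0.02. In VR against VdR tumors 0 were called by limma or by the methods' t-test, beside 1.77% of all genes called higher and 1.67% called lower by limma. At an unadjusted p under 0.05 there were 4 (Jaml, Marveld1, Micall2 and Pard3b), and the median was -0.04.

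**Figure D4:**
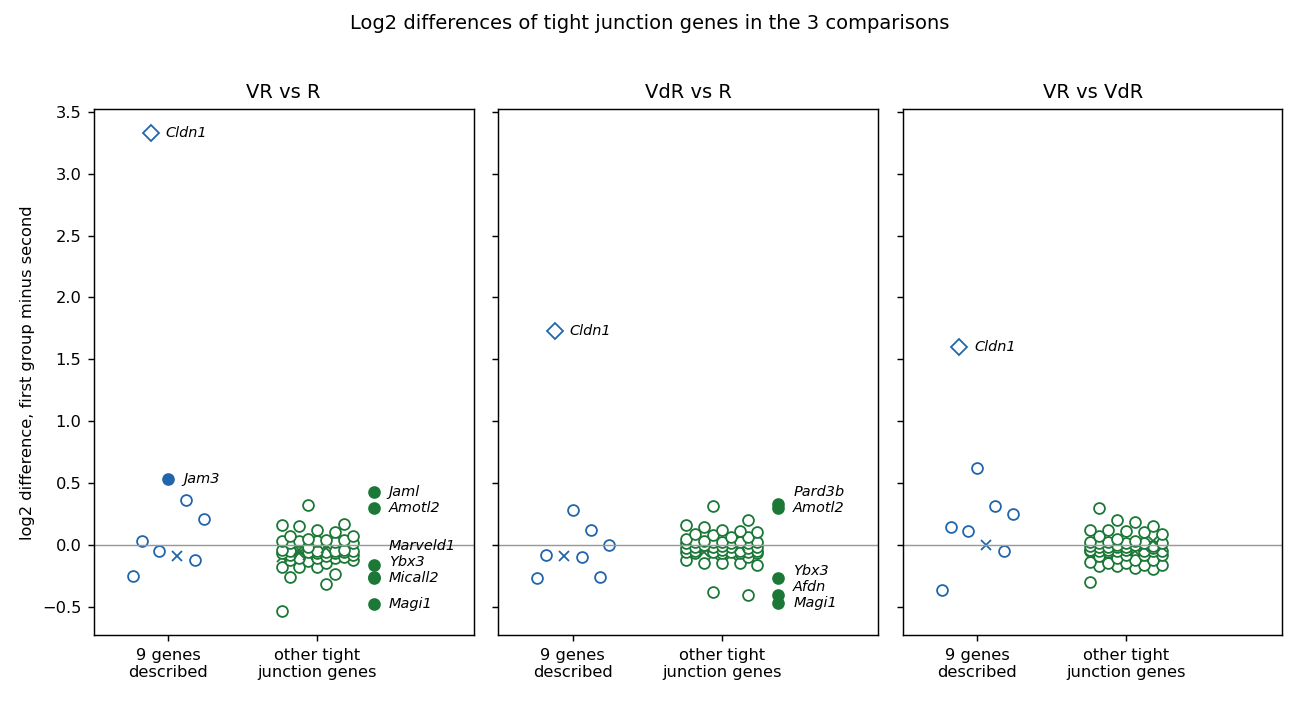
Log2 differences (first group minus second) of the 9 genes described, at left in each panel, and of 59 other tight junction genes, at right, in the 3 comparisons. Filled circles passed the limma threshold, open circles did not, crosses were not tested, and the diamond is Cldn1, shown with no test. Cldn1 lies at 3.33, 1.73 and 1.60 while all other genes lie between -0.54 and 0.62.

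None of the 16 other claudins tested was called in a comparison by limma or by the methods' t-test. In VR against R tumors limma called 13.6% of all genes higher and 7.48% lower. The shares were 6.58% and 2.81% in VdR against R and 1.77% and 1.67% in VR against VdR. At the shares of VR against VdR few calls would fall on 16 genes, while at those of VR against R some would. At an unadjusted p under 0.05 there were 3 in VR against R (Cldn4, Cldn5 and Cldn16) and 0 in the comparisons with VdR tumors. Their differences ran from -0.54 to 0.03 for VR minus R, against 3.33 for Cldn1. Several of the 16 lay near the filter of 5.38, where a difference says little. Among them were Cldn16 (means of 5.34 in VR and 5.49 in R tumors), Cldn22 (5.36 and 5.43) and Cldn10 (5.47 and 5.44). The lowest belonged to Cldn5, the main claudin of vessel walls, at 8.70, 8.58, 8.95 and 9.36 in VR, 8.86, 8.89, 9.60 and 8.90 in VdR and 9.86, 9.25, 9.77 and 8.87 in R tumors. Its groups overlapped, and VR minus R was -0.54 (95% interval -1.06 to -0.02, limma, adjusted p = 0.133), a sign opposite to that of all 13 endothelial markers, whose differences ran from 0.04 to 1.01. Cldn20 differed by 0.02 (limma, adjusted p = 0.911).

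Of the other MARVEL and angulin genes (5 tested), Marveld1 fell in VR against R tumors, where 7.48% of all genes fell. It was at 10.76, 10.87, 10.87 and 10.78 in VR, 10.95, 10.98, 11.05 and 10.91 in VdR and 10.97, 10.95, 11.03 and 10.97 in R tumors. VR tumors lay below all others by a small margin, with VR minus R at -0.16 (95% interval -0.27 to -0.05, limma, adjusted p = 0.0364). Without the VR and VdR tumors numbered 1 it was -0.14 (limma, adjusted p = 0.104). The Marveld1 call was lost in 6 of the 20 alternatives tried, this fit among them. Lsr, an angulin that recruits tricellulin, was not called (0.16, limma, adjusted p = 0.299).

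Of the other junctional immunoglobulin genes (5 tested), Jaml rose in VR against R tumors, where 13.6% of all genes rose. Its product is a leukocyte receptor that binds CXADR on epithelial cells. Jaml was at 6.37, 6.25, 6.66 and 6.42 in VR, 6.26, 6.14, 6.13 and 5.95 in VdR and 6.05, 5.95, 5.97 and 6.01 in R tumors. VR tumors did not overlap R tumors, and VR minus R was 0.43 (95% interval 0.24 to 0.61, limma, adjusted p = 0.00478). VdR minus R was 0.12 (limma, adjusted p = 0.437) and VR minus VdR was 0.30 (limma, adjusted p = 0.0746), so VdR tumors lay between the others without a call. The macrophage markers had higher levels in VR against R tumors, at 9.84 to 10.01 against 8.91 to 9.20, and also in VdR tumors, at 9.94 to 10.23, and their part in the Jaml difference was not tested. Esam, of vessels and platelets, and Clmp differed by 0.17 and -0.08 for VR minus R (limma, adjusted p = 0.465 and 0.624).

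Of 17 scaffold and plaque genes tested, 1 rose and 3 fell in each comparison with R tumors, beside 13.6% and 7.48% of all genes in VR and 6.58% and 2.81% in VdR tumors, and the methods' t-test called 2 of them in VR and 1 in VdR tumors. Ybx3, encoding the Y-box factor ZONAB that ZO-1 binds, fell in both Vnn1 groups, at 12.52, 12.53, 12.55 and 12.60 in VR, 12.50, 12.52, 12.54 and 12.61 in VdR and 12.84, 12.75, 12.79 and 12.87 in R tumors. Neither Vnn1 group overlapped R, with differences of -0.26 for VR minus R (95% interval -0.36 to -0.16, limma, adjusted p = 0.00271) and -0.27 for VdR minus R (-0.37 to -0.16, limma, adjusted p = 0.00415). Magi1, a scaffold with several PDZ domains found at tight and adherens junctions, fell likewise. It was at 8.50, 8.17, 8.54 and 8.42 in VR, 8.41, 8.43, 8.32 and 8.50 in VdR and 8.86, 8.82, 8.74 and 9.12 in R tumors. The differences were -0.48 for VR minus R (95% interval -0.68 to -0.27, limma, adjusted p = 0.00421) and -0.47 for VdR minus R (-0.67 to -0.26, limma, adjusted p = 0.00836). VR and VdR tumors overlapped in both genes. With the methods' t-test both Magi1 calls were lost (adjusted p = 0.051 for VR and 0.0604 for VdR against R), while Ybx3 was called in all 20 alternatives of each comparison.

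Amotl2, of the angiomotin family that binds junction scaffolds and YAP, was higher than R by 0.30 in VR (limma, adjusted p = 0.0156) and by 0.30 in VdR tumors (limma, adjusted p = 0.029). It was at 7.91, 7.88, 8.07 and 7.94 in VR, 8.15, 7.88, 7.89 and 7.89 in VdR and 7.80, 7.56, 7.63 and 7.62 in R tumors. Without the VR and VdR tumors numbered 1 the VdR difference was 0.23 (limma, adjusted p = 0.0906). The VdR call of Amotl2 was lost in 9 of the 20 alternatives tried, this fit and the methods' t-test (adjusted p = 0.129) among them. Afdn, encoding afadin, which links nectins to actin, was lower in VdR than in R tumors by 0.41 (limma, adjusted p = 0.0253), at 10.03, 10.03, 10.05 and 10.37 in VR, 9.96, 10.01, 9.80 and 10.12 in VdR and 10.31, 10.21, 10.42 and 10.58 in R tumors. VR minus R was -0.26 for Afdn (limma, adjusted p = 0.0884), with VR tumor 5 inside the range of R tumors. Without the VR and VdR tumors numbered 1 the VdR call of Afdn was lost (-0.40, limma, adjusted p = 0.0782). It was lost in 7 of the 20 alternatives tried, this fit and the methods' t-test (adjusted p = 0.110) among them.

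Micall2, an effector of Rab13 in the transport of occludin and claudins, was lower in VR against R tumors, at 8.93, 8.85, 8.78 and 9.03 in VR, 8.95, 9.01, 9.30 and 9.10 in VdR and 9.07, 9.09, 9.23 and 9.27 in R tumors. Its difference of -0.27 (95% interval -0.45 to -0.09, limma, adjusted p = 0.0402) was not called in 8 of the 20 alternatives tried, among them the fit without the VR and VdR tumors numbered 1 (-0.28, limma, adjusted p = 0.0595). Sympk, which encodes the plaque and RNA-processing protein symplekin, differed by -0.13 for VR minus R (limma, adjusted p = 0.244). Of 12 polarity genes tested, Pard3b, a relative of the PAR-3 polarity scaffold, was higher in VdR than in R tumors, where 6.58% of all genes rose. Pard3b was 0.33 higher (limma, adjusted p = 0.0264), at 6.94, 6.89, 7.10 and 6.81 in VR, 7.40, 7.30, 7.04 and 7.19 in VdR and 6.99, 6.91, 6.84 and 6.91 in R tumors. Without the VR and VdR tumors numbered 1 the Pard3b difference was 0.27 (limma, adjusted p = 0.0988). Its call was lost in 5 of the 20 alternatives tried, this fit and the methods' t-test (adjusted p = 0.107) among them. The atypical protein kinase C gene Prkci and the scaffold gene Lin7c were not called, at 0.12 (limma, adjusted p = 0.315) and 0.01 (limma, adjusted p = 0.946) for VR minus R.

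The genes whose levels most resembled Cldn1 over the 12 tumors were Mtmr10 (Pearson r = 0.976), Glt8d2 (0.975), Srpx (0.969), Slc25a20 (0.969), Dpt (0.967), Hint3 (0.964), Smpdl3a (0.960), Nrp1 (0.959), Olfml3 (0.959) and Birc3 (0.959). None of them is a tight junction gene of the lists above. Dpt encodes dermatopontin, a matrix protein of fibroblasts and one of the fibroblast markers used here, Nrp1 a coreceptor of semaphorins and vascular endothelial growth factor, and Slc25a20 the mitochondrial carrier of acylcarnitines. Dpt was at 10.87, 11.91, 11.90 and 11.33 in VR, 10.81, 11.06, 10.18 and 10.31 in VdR and 9.55, 9.57, 8.83 and 8.72 in R tumors. The Cldn1 groups do not overlap, so any gene that orders the groups alike has a high r, and 244 of 16572 genes had an r above 0.9. The order at the top is loose, since 5 of the 10 genes stayed among the first 10 after cyclic loess of the values and 8 after centring each array on its median.

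Within groups, as deviations from the group means, Cldn1 varied most alike with Kctd9 (r = 0.924), Magi3 (0.924), Rgs18 (0.919), Ccl9 (0.909) and Hnrnpdl (0.899) over the 12 tumors. Magi3, a scaffold related to Magi1, is one of the wider tight junction genes. It was at 8.50, 8.71, 8.59 and 8.58 in VR, 8.80, 8.88, 8.37 and 8.31 in VdR and 8.28, 8.60, 8.07 and 8.15 in R tumors. In VdR and R tumors its higher values fell in tumors 1 and 2, where Cldn1 was also higher than in tumors 4 and 5 of the same group. The 5 genes were the highest of 16572 by this correlation, so that match follows from the choice and carries no test. Its group differences were 0.32 for VR minus R (limma, adjusted p = 0.122) and 0.31 for VdR minus R (limma, adjusted p = 0.198), neither of them called.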

How the data were processed

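RNA of 12 tumors was hybridised by the authors to Affymetrix affy_mogene_1_0_st_v1 arrays, and the deposited values are log2 expression normalized by RMA with oligo (versions not given in the sources used here). RMA gives all arrays the same distribution of probe intensities, so an overall shift in RNA content cannot be seen. The study's methods describe tumor RNA, whereas the labels' extraction text speaks of sorted cells. Harvest was at day 21 in the methods and at 2 to 3 weeks in the labels. No batch or scan date was used here. The number of arrays limits the precision.

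Of 35556 probesets, 21789 had 1 gene symbol, 1621 had several and 12146 had none in the platform annotation, and 21698 matched the RefSeq table of GRCm38.p6 by Entrez ID. Of several probesets for a gene, the one with the highest mean was used, giving 19938 genes. Tested were the 16573 genes that exceeded 5.38, the lower quartile (25th percentile) of the whole table, on 4 or more arrays. Groups were compared over all 12 arrays with limma 3.58.1 in R 4.3.3 and Benjamini-Hochberg adjustment over all genes tested, at a threshold of 0.05. The fit was tested on simulated data. Intervals are 95% and unadjusted. Cldn1 and Vnn1 were not counted among calls.

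Members and lists were chosen with earlier results of these data known. Named were the 9 genes, Vnn1, called genes of each part of the wider list and its 2 most abundant by mean value, the genes most correlated with Cldn1, and leading markers, of which the text gives part. Alternatives were another filter, probeset means, trended or robust moderation, array weights, cyclic loess and median centring. Others were a block for tumor number, a fit of only the groups compared, and leaving out each tumor. A further one, called the methods' t-test here, is the t-test that the methods name for gene expression beside qRT-PCR. The methods state no test of single genes for the arrays. Leaving out the VR and VdR tumors numbered 1 was added after the data were seen.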

Additional observations from a re-analysis of the deposited data

Results flagged for a closer look

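In 7 of 69 groups of 4 tumors, taken over the genes described, the called genes and the marker means, 1 tumor lay further from its group than a Dixon test allows, which chance gives in about 1 of 20 groups. Marveld2 was at 5.62 in VdR tumor 4 against 5.53 to 5.54 in the other VdR tumors. Jam3 was at 8.68 in VR tumor 5 against 8.08 to 8.17 in the other VR tumors, and at 7.89 in VdR tumor 5 against 8.05 to 8.07 in the other VdR tumors. Amotl2 was at 8.15 in VdR tumor 1 against 7.88 to 7.89 in the others, and Afdn at 10.37 in VR tumor 5 against 10.03 to 10.05 in the others. The mean of the epithelial markers was 6.74 in VR tumor 1 against 6.12 to 6.19 in the other VR tumors, and 6.56 in VdR tumor 1 against 6.16 to 6.22 in the other VdR tumors. No group of Cldn1 values held such a tumor.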

How the results depend on the processing

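Cldn1 kept its order of groups under every alternative run, with differences of 3.08 to 3.58 for VR minus R, 1.49 to 1.98 for VdR minus R and 1.40 to 1.77 for VR minus VdR. Differences of 5 of the other 8 genes described, of 6 genes of the wider list (Afdn, Amotl2, Magi1, Marveld1, Micall2 and Pard3b) and of the markers Cdh1 and Pdgfra crossed the threshold or changed sign in at least 1 setting, and the cause was not tested. The VR call of Jam3 was lost with a replicate block (adjusted p = 0.056), with only the groups compared (0.0652) and with the methods' t-test (0.145), which leave 0 of the 7 genes called, and the range without 1 tumor was 0 to 1. Tjp1 was called in VdR against R with array weights (1 gene) and a replicate block (1 gene, adjusted p = 0.0397). Cldn12 was called in VR against VdR (1 gene) with the stricter filter, robust moderation, array weights and cyclic loess, and without 1 tumor the count was 0 to 1. Signs near 0 turned for Marveld2 in VdR against R, at -0.02 with median centring and -0.02 to 0.04 without 1 tumor, and for Cldn15 without 1 tumor, at -0.03 to 0.12 in VR against R and -0.12 to 0.01 in VdR against R.

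Genes called in VR against R, VdR against R and VR against VdR numbered 3500, 1555 and 570. With array weights they numbered 5667, 2595 and 884, with the methods' t-test 2120, 493 and 30. Without 1 tumor they ranged from 961 to 1775 in VdR against R and 86 to 554 in VR against VdR, and without the VR and VdR tumors numbered 1 they were 984 and 344. The wider list gave 12 calls in VR against R with array weights. In VdR against R it gave 1 with the methods' t-test, 2 without the tumors numbered 1, and 2 to 5 without 1 tumor. In VR against VdR it gave 1 with probeset means, array weights or cyclic loess. The labels give tumor numbers no shared source, and the numbers were not taken to pair the tumors. Deviations of same-numbered tumors from group means correlated at -0.15 to 0.4, with positive values for all 4 numbers between VdR and R and between VR and VdR and for 2 of 4 between VR and R, and 3 of 12 tumors correlated best with their own number.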
